A study of Mus musculus with 6 samples.

Results

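The 9 genes described here encode subunits of ionotropic glutamate receptors that are transcribed in the embryonic mouse kidney. They are the AMPA receptor genes Gria1, Gria2, Gria3 and Gria4, the delta receptor gene Grid1, the kainate receptor genes Grik2, Grik3 and Grik5, and the NMDA receptor gene Grin2d. They were taken by name from the 13965 rows of a deposited expression table, and each has a row of its own. The set was drawn up with the difference of Gria1 and Grid1 between genotypes already known. The values of those 2 genes are therefore given as a description, without a test.

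Whole kidneys of embryonic day 16 were sequenced as 3 control and 3 mutant RNA libraries. Control kidneys were labelled wild type with 1 floxed copy of the microRNA cluster miR-17~92 (flx/+), and no Cre transgene is named for them. Mutant kidneys carried Six2-TGC and 2 floxed copies (flx/flx). Six2-TGC places Cre recombinase under control of Six2, a gene of nephron progenitors, so the deletion is expected in those cells and their descendants, the nephron epithelia, and not in stroma, ureteric bud or endothelium. Transgene and deletion went together, and their effects cannot be told apart. A control and a mutant library came from each of 3 litters. Values are CPM, reads scaled to a common library total, and 1 CPM stood for 43.8 to 54.9 reads. In bulk RNA, fewer cells of a type and less RNA per cell cannot be told apart.

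Ionotropic glutamate receptors are cation channels built of 4 subunits that open when glutamate binds. AMPA receptors carry fast excitatory signals between neurons, kainate receptors modulate them, and NMDA receptors admit calcium. The delta receptors share the fold but act mainly as adhesion proteins, which bind secreted cerebellins that in turn hold presynaptic neurexins. Outside the brain, subunits of these receptors have been described in podocytes and tubules of the kidney.

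The cluster deleted in the mutants makes 6 mature microRNAs with 4 seeds, the bases that pair with target messages. The sequences are shown because the receptor messages were searched for matches to these seeds. They are from RefSeq (GRCm38.p6, chromosome 14, plus strand), 5′ to 3′, with the seed (bases 2 to 8) in capitals, and the first and second share a seed, as do the fourth and the fifth.
mmu-miR-17-5p: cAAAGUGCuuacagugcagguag
mmu-miR-20a-5p: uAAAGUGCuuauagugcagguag
mmu-miR-18a-5p: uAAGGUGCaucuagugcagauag
mmu-miR-19a-3p: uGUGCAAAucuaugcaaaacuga
mmu-miR-19b-3p: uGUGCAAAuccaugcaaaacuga
mmu-miR-92a-3p: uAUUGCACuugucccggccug

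The longest annotated 3′ UTRs of Gria1 (2598 bases), Grid1 (2570 bases), Gria4 (2256 bases), Grin2d (897 bases) and Grik5 (520 bases) held no 7-base match to any of these seeds. Searched on the message strand, the matches were GCACTTT for miR-17 and miR-20a, GCACCTT for miR-18a, TTTGCAC for miR-19a and miR-19b, and GTGCAAT for miR-92a. Neighbouring matches can share bases at their ends, as TTTGCAC and GCACTTT do, but no 2 matches in these genes did. Over 12671 tested genes with 1 identifier and an annotated 3′ UTR, 34.05% held at least 1 match, that is 14.7% for miR-17/20a, 9.52% for miR-18a, 13.4% for miR-19 and 7.73% for miR-92a. Among UTRs of about the length of that of Gria1 or Grid1, from 0.8 to 1.2 times as long, 52.5% and 52.0% did. The absence of a match says only that these letters were not in the window searched.

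The other 4 members held 7 matches in all. They are shown with 10 bases on either side, the match in capitals and coordinates in GRCm38, and all lie in the 3′ UTR.
Gria2, miR-17/20a, minus strand, chr3:80687221-80687247: agtagaaggaGCACTTTaatttgtgta
Gria2, miR-92a, minus strand, chr3:80684797-80684823: ctgaaagaaaGTGCAATtaggtcaaat
Gria3, miR-92a, plus strand, chrX:41676448-41676474: attgctgatgGTGCAATgacctttcaa
Grik2, miR-92a, minus strand, chr10:49098881-49098907: aattctaagtGTGCAATtataattgga
Grik2, miR-17/20a, minus strand, chr10:49098755-49098781: atatatgtgaGCACTTTaaatatttta
Grik2, miR-19, minus strand, chr10:49098471-49098497: acatgtagaaTTTGCACattcgatgag
Grik3, miR-17/20a, plus strand, chr4:125711717-125711743: tgaaatttgaGCACTTTgtgggggctc
The UTRs of Gria2, Grik2 and Grik3 are long, with 7268, 6275 and 6082 bases. Among UTRs of similar length 81.9%, 79.4% and 79.1% held at least 1 match, with a median of 2, so 1 to 3 matches are usual at that length.

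Gria1 encodes GluA1, an AMPA receptor subunit best known from hippocampal synapses. It stood at 2.88, 2.48 and 1.86 CPM in the control kidneys of litters 1, 2 and 3, from 126, 109 and 92 reads. The mutant kidneys of the same litters had 7.163, 7.503 and 5.399 CPM, from 346, 412 and 252 reads. The lowest mutant library was thus above the highest control library, and the ratio within a litter was 2.49, 3.03 and 2.90. The group means were 2.40 ± 0.512 and 6.69 ± 1.13 CPM (SD, n = 3 each). On the log2(CPM + 0.5) scale, which understates changes of low genes, the difference was 1.31 (SE 0.18).

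Grid1 encodes the delta receptor GluD1. Its control values were 1.99, 2.48 and 3.58 CPM (87, 109 and 177 reads), and its mutant values 6.31, 6.63 and 6.94 CPM (305, 364 and 324 reads). Here too the groups did not overlap. The mutant kidneys lay close together, with a mean of 6.63 ± 0.314 CPM, and the controls were more spread, with 2.68 ± 0.815 CPM. The ratio within a litter was 3.18, 2.68 and 1.94, and the log2 difference 1.19 (SE 0.18). The 2 genes did not follow one order across litters, since litter 3 had the lowest control value for Gria1 and the highest for Grid1.

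**Figure D1:**
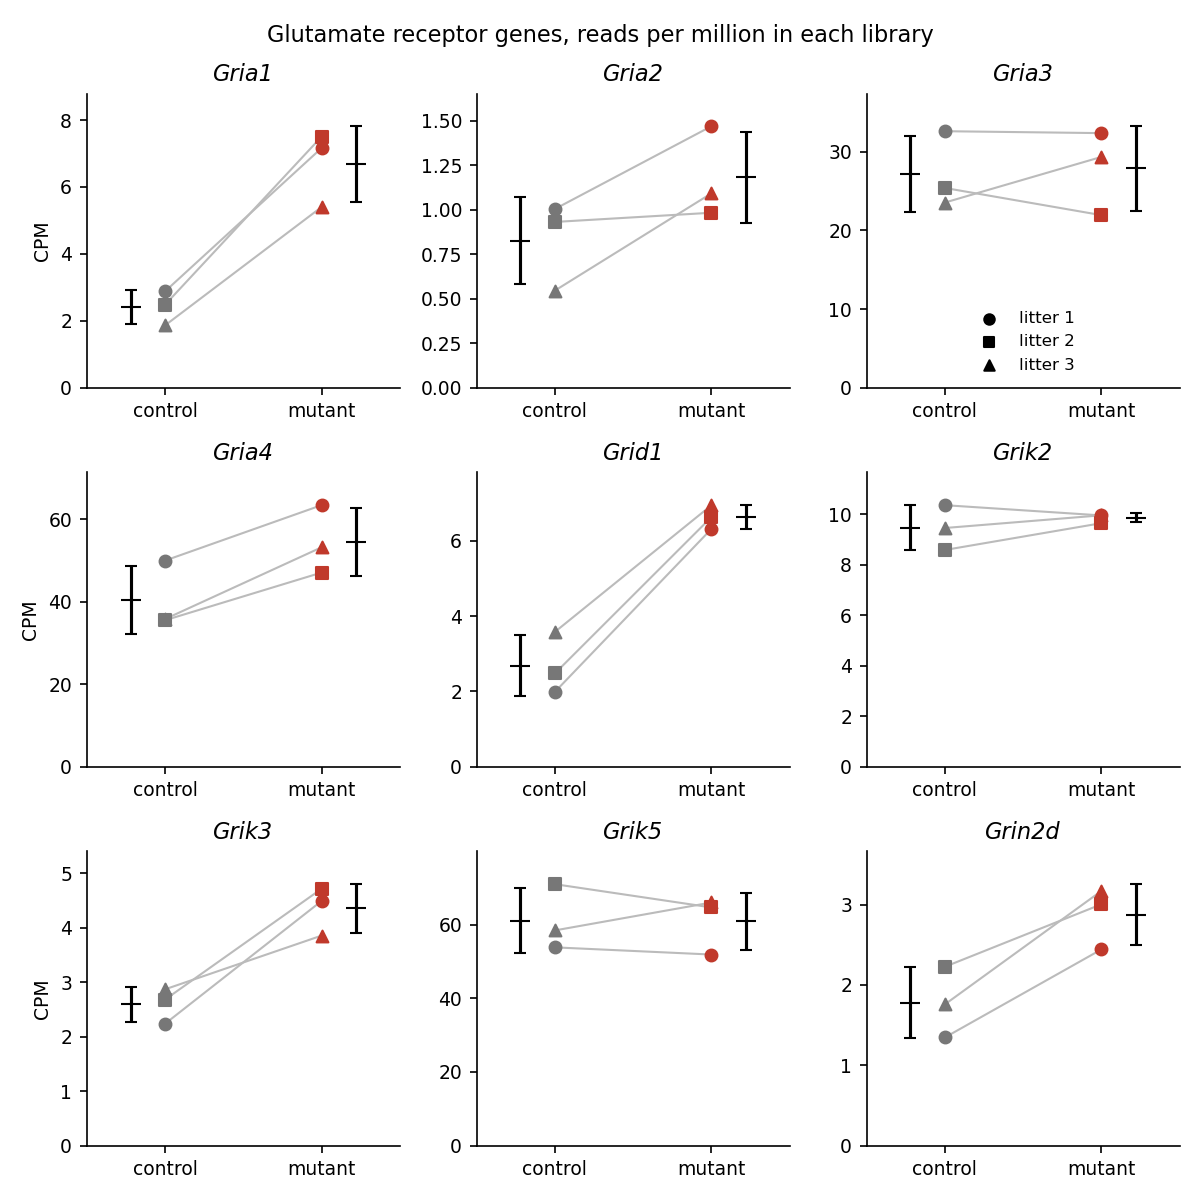
CPM of each glutamate receptor gene (vertical axis, from 0, its own scale in each panel) in control and mutant kidneys. Each symbol is 1 library, lines join the libraries of a litter, and bars give the group mean ± SD (n = 3); in Gria1, Grid1, Grik3 and Grin2d every mutant library lies above every control library.

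Of the other AMPA receptor genes, Gria4 was the most abundant, and it was higher in the mutant kidney of every litter. Gria4 encodes GluA4, a subunit with fast kinetics. It stood at 50.02, 35.5 and 35.8 CPM in controls and 63.5, 47.1 and 53.2 CPM in mutants of litters 1, 2 and 3. The groups overlapped, because the control kidney of litter 1 was above the mutant kidney of litter 2, but the ratio within a litter was even, with 1.27, 1.33 and 1.49. Its log2 difference was 0.44 (SE 0.15). In limma's model of genotype alone the adjusted p was 0.2999, and it was 0.00666 with litters paired.

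Gria3 encodes GluA3, which pairs with GluA2 in many neurons. It stood at 32.6, 25.4 and 23.5 CPM in controls and 32.4, 21.9 and 29.4 CPM in mutants, so the groups overlapped over nearly their whole range. Its log2 difference was 0.03, with a 95% interval from -0.33 to 0.39 (adjusted p = 0.970 by limma, and 0.867 paired). Gria2, whose product GluA2 keeps calcium out of AMPA receptors once its message is edited, was the least expressed member. It had 44, 41 and 27 reads in controls (1.00, 0.932 and 0.546 CPM) and 71, 54 and 51 reads in mutants (1.47, 0.983 and 1.09 CPM). The groups overlapped, and the log2 difference of 0.35 (interval -0.11 to 0.81) did not pass, with an adjusted p of 0.577 by limma and 0.234 paired. Gria2 entered the test with 1 CPM in 1 control and 2 mutant libraries, so its place there leaned on the mutant group.

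Per length, the AMPA receptor RNA of these kidneys was mainly Gria4 and Gria3, with little Gria2. In each library the CPM of the 4 genes were divided by the length of the longest annotated transcript, which need not be the one expressed. On this scale Gria4 made up 54.7% to 60.5% of the sum over the 6 libraries, Gria3 29.4% to 40.8%, Gria1 2.92% to 9.45% and Gria2 0.458% to 0.752%. Gria1 stood at 3.23%, 3.74% and 2.92% of the sum in controls and reached 6.69%, 9.45% and 5.90% in mutants. The share of Gria3 was 39.0%, 40.8% and 39.4% in controls and 32.2%, 29.4% and 34.2% in mutants. Its CPM did not pass a test, and a share falls when other parts of the sum rise.

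**Figure D2:**
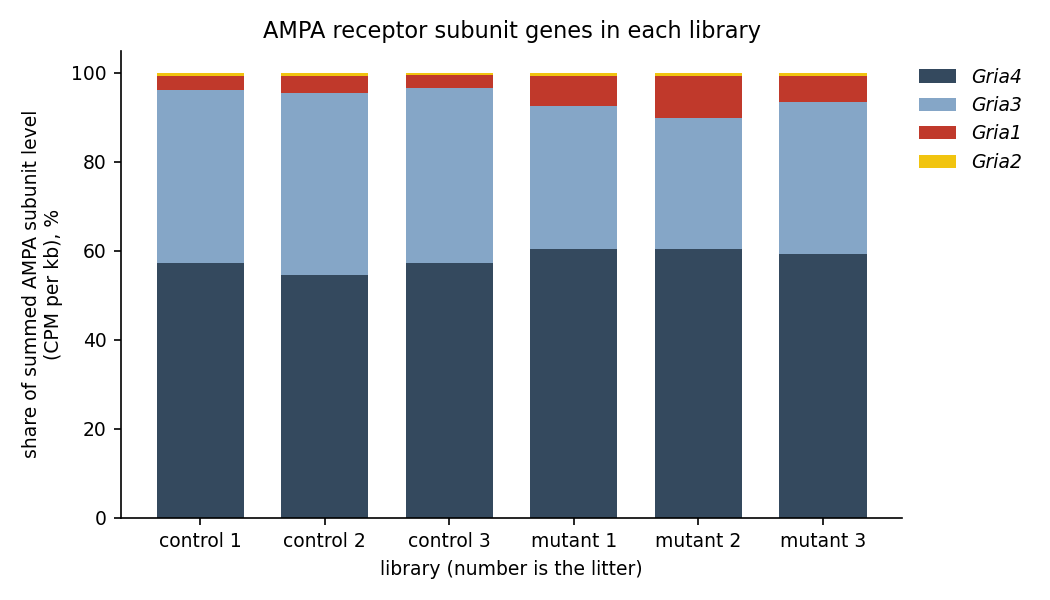
Share of each AMPA receptor subunit gene (vertical axis, percent of their summed CPM per kilobase) in each library, one bar per library. Gria4 and Gria3 fill most of every bar, and the Gria1 segment runs from 2.92% to 3.74% in controls and from 5.90% to 9.45% in mutants.

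Among the kainate receptor genes of the set, Grik3 was higher in every mutant library and Grik2 and Grik5 were not. Grik3 encodes GluK3, a low-affinity subunit. It stood at 2.24, 2.68 and 2.87 CPM in controls (98, 118 and 142 reads) and 4.49, 4.72 and 3.86 CPM in mutants (217, 259 and 180 reads). The groups did not overlap. The ratio within a litter was 2.01, 1.76 and 1.34. limma gave a log2 difference of 0.65 (SE 0.15), with an adjusted p of 0.103, or 0.0246 with litters paired.

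Grik2 encodes GluK2, which can form a channel by itself. It was the steadiest member, with 10.4, 8.59 and 9.46 CPM in controls and 9.96, 9.65 and 9.96 CPM in mutants. Its log2 difference was 0.06, with an interval from -0.21 to 0.32 (adjusted p = 0.906 by limma, 0.720 paired). Grik5 encodes GluK5, a high-affinity subunit that reaches the surface only with another kainate subunit. It was the most abundant member, with 53.8, 71.0 and 58.4 CPM in controls and 51.9, 64.7 and 66.0 CPM in mutants. Its groups overlapped, and its log2 difference was -0.004, with an interval from -0.29 to 0.28 (adjusted p = 0.995 by limma, 0.977 paired). For Gria3, Grik2 and Grik5 these intervals leave out a difference as large as that of Gria1 or Grid1.

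Grin2d encodes GluN2D, the NMDA receptor subunit of early development, which needs GluN1 to form a channel. Its row held 59, 98 and 87 reads in controls (1.35, 2.23 and 1.76 CPM) and 118, 165 and 148 reads in mutants (2.44, 3.00 and 3.17 CPM). The groups did not overlap, though the lowest mutant kidney (litter 1) was close to the highest control kidney (litter 2). Within litters the ratio was 1.81, 1.35 and 1.80. limma gave a log2 difference of 0.58 (SE 0.18), with an adjusted p of 0.246, or 0.0384 paired.

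**Figure D3:**
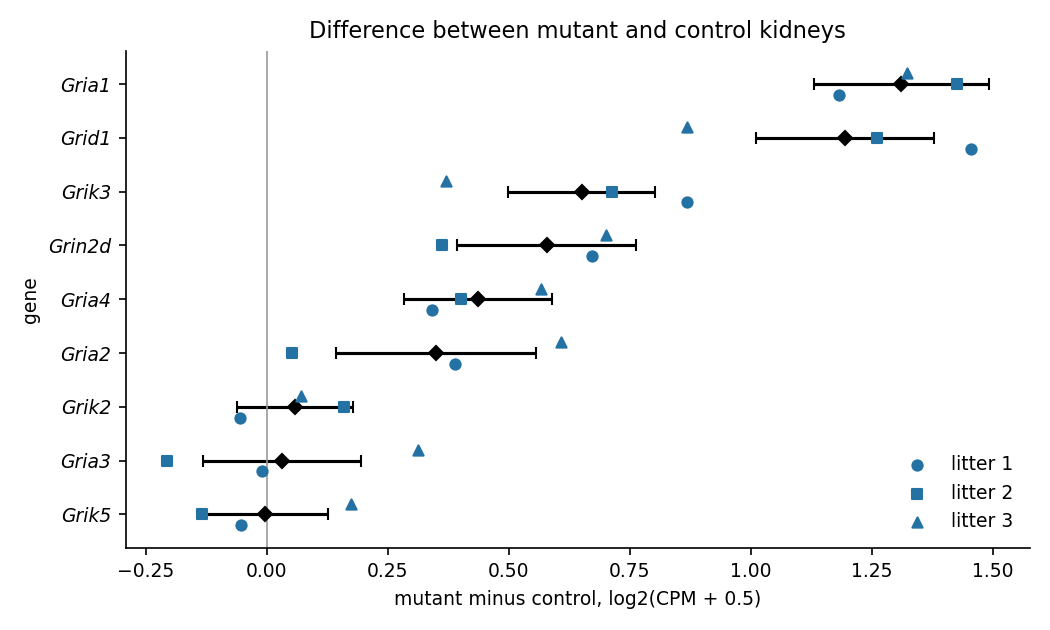
Difference of each glutamate receptor gene between mutant and control kidneys (horizontal axis, log2(CPM + 0.5)). Black diamonds with bars are limma's estimate ± SE over 3 against 3 libraries and blue symbols the 3 litters; Gria1 and Grid1 lie at 1.31 and 1.19, and Grik2, Gria3 and Grik5 near 0.

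Across the 9 genes, 6 were higher in the mutant kidney of all 3 litters, against 28.3% of the 13766 rows tested. In 4 of them the mutant libraries all lay above the control libraries (10.2% of rows), and in 0 all below (7.12%). The median log2 difference of the 9 was 0.44, beside 0.01 over all tested rows. These counts include Gria1 and Grid1, for which the set was put together, and nothing is read from them. Without those 2, 4 of 7 were higher in all 3 litters, 2 did not overlap, both higher, and the median was 0.35. Of the other 7 genes limma called 0 with genotype alone, where 0.559% of all rows were called. In that fit limma gave an unadjusted p below 0.05 to 3 of the 7, and to 1551 of all 13766 rows. Paired by litter it called 3, Gria4, Grik3 and Grin2d, all higher, where 11.4% of all rows were called, 7.93% higher and 3.51% lower. All 9 members passed the minimum of 1 CPM in 3 libraries.

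The members are long messages, with longest transcripts of 4061 (Grik5) to 10371 bases (Gria2) against a median of 3464 bases over tested rows. Over the 5205 tested rows at least as long as Grik5 the median log2 difference was 0.09, and over the 8312 shorter rows -0.03. With the part of each library's values that followed length and GC content taken out, the log2 difference was 1.23 for Gria1, 1.10 for Grid1, 0.50 for Grik3, 0.55 for Grin2d and 0.38 for Gria4. Paired by litter with this correction, Gria4 passed (adjusted p = 0.00968 by limma), and Grik3 and Grin2d did not (0.0733 and 0.0617). In that fit 6.5% of all rows were called, 4.36% higher and 2.14% lower.

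Ordered by level per kilobase of transcript over the 6 libraries, Grik5 came first (15.0 ± 1.84 CPM per kb, SD, n = 6), followed by Gria4 (8.74 ± 1.97), Gria3 (5.29 ± 0.878) and Grik2 (1.03 ± 0.0648). Each of the first 3 was above the next in 6 of 6 libraries, without overlap of their ranges. Gria1 (0.820 ± 0.446) and Grid1 (0.814 ± 0.390) came next, then Grin2d (0.428 ± 0.130) and Grik3 (0.387 ± 0.114). In this middle stretch the ranges of neighbours overlapped, and Grik2, Gria1 and Grin2d were each above the next gene in 4 of 6 libraries, while Grid1 was above Grin2d in 6 of 6. Gria2 was last, at 0.0969 ± 0.0286 CPM per kb, below Grik3 in 6 of 6. The place of Gria1 and Grid1 in this order differed with genotype. In controls Grik2 was above both in 3 of 3 libraries, at 0.911 to 1.10 CPM per kb against 0.335 to 0.519 for Gria1 and 0.347 to 0.625 for Grid1. In mutants Grid1 (1.10 to 1.21) was above Grik2 (1.02 to 1.06) in 3 of 3 libraries and Gria1 (0.974 to 1.35) in 2 of 3.

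Expression profiles close to those of Gria1 and Grid1 were sought among 12941 rows of 1 gene with a mean of at least 1 CPM. Likeness was the root mean square difference of log2(CPM + 0.5) over the 6 libraries after each gene was centred on its own mean. Closest to Gria1 was Cbln4, a secreted cerebellin (0.180, against a median of 0.693 over all rows), followed by Tacr3, a tachykinin receptor gene (0.243), and Col6a5, a type VI collagen chain (0.255). Closest to Grid1 were Dgkk, a diacylglycerol kinase gene (0.197), Cyp26b1, whose product breaks down retinoic acid (0.198), and Itih2, which encodes a heavy chain of the inter-alpha-trypsin inhibitors (0.208). Grid1 ranked at place 56 for Gria1 and Gria1 at place 172 for Grid1, with a distance of 0.401. Both genes were picked for a difference between genotypes, so a near profile carries that difference too.

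Of 81 further genes of glutamate signalling, 50 had a row and 48 passed the minimum level. With genotype alone limma called 2 of the 48, both higher (0.363% of all rows were called higher and 0.196% lower), and 9 had an unadjusted p below 0.05. Paired by litter it called 6 higher and 1 lower, beside 7.93% and 3.51% of all rows. Of the 13766 rows tested, 1551 had an unadjusted p below 0.05 with genotype alone and 4022 when paired. These 2 numbers are the background for the unadjusted counts here and in the groups below. The median log2 difference of the 48 was 0.16.

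Cbln4 changed most among them. Cerebellins are secreted, and family members bridge delta receptors and neurexins, although Cbln4 has other partners as well. Cbln4 stood at 4.25, 3.86 and 2.93 CPM in controls and rose to 8.53, 8.29 and 8.61 CPM in mutants. The mutant values lay close together and well above the controls, with means of 3.68 ± 0.676 and 8.48 ± 0.170 CPM. limma gave a log2 difference of 1.116 (SE 0.15) and an adjusted p of 0.0114 (0.00284 paired). It was 0.0826 without mutant library 3, 0.306 without litter 2 and 0.333 without litter 3. The other ligands were not called with genotype alone. Nrxn2, a neurexin, stood at 8.61 ± 0.758 and 7.15 ± 1.34 CPM (adjusted p = 0.570), and the row of Nptxr, joined with Cbx6 and Npcd so that its reads cannot be assigned, at 112 ± 15.1 and 126 ± 16.5 CPM (0.663, and 0.0408 paired, but 0.612 paired with the length and GC correction).

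Glutamate transporters clear glutamate from outside the cell. Slc1a3 is known from glia, and Slc1a1 from kidney tubules. Slc1a3, which encodes the transporter GLAST, rose from 16.5, 12.8 and 12.0 CPM in controls to 26.0, 24.9 and 21.1 CPM in mutants, without overlap. Its log2 difference was 0.78 (SE 0.14), with an adjusted p of 0.0434 by limma (0.00215 paired). This call with genotype alone was lost when any library but control library 1 was left out, with adjusted p of 0.0631, 0.137 and 0.116 without mutant libraries 1, 2 and 3 and 0.152 and 0.136 without control libraries 2 and 3. It was also lost with median-ratio scaling (0.0513) and without litter 2 (0.542) or litter 3 (0.511). Slc1a1 stood at 8.16 ± 0.504 and 12.0 ± 1.01 CPM (adjusted p = 0.0998, 0.0182 paired). Slc1a5, a carrier of neutral amino acids, was the most abundant of this group at 87.6 ± 10.9 and 77.8 ± 5.10 CPM (0.612), and Slc1a4 stood at 16.2 ± 1.45 and 19.0 ± 1.87 CPM (0.529). In all 2 of 5 transporters were called higher when paired, beside 7.93% of all rows.

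Auxiliary proteins bind the receptors and set their gating and traffic. With genotype alone limma called 0 of 10 (2 had an unadjusted p below 0.05). When paired it called 2 higher, beside 7.93% of all rows. Neto2, an auxiliary subunit of kainate receptors, stood at 45.8, 39.8 and 42.7 CPM in controls and 83.0, 58.5 and 67.7 CPM in mutants, again with no overlap. Its log2 difference was 0.69 (SE 0.13), and its adjusted p of 0.050009 by limma lay just above the threshold (0.00163 paired). Shisa7, an auxiliary protein of AMPA receptors whose row holds a second identifier without a symbol, stood at 8.06 ± 0.871 and 12.9 ± 0.848 CPM (adjusted p = 0.0600, 0.00794 paired). The abundant members Cnih1 (89.8 ± 0.812 and 82.1 ± 2.38 CPM) and Abhd12 (74.2 ± 4.27 and 84.3 ± 2.91 CPM) did not pass in either fit, with adjusted p of 0.590 and 0.462 unpaired. With pairing and the length and GC correction Abhd12 passed as well (0.0241).

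Scaffold proteins hold the receptors below the membrane. Of 15, limma called 0 with genotype alone (2 had an unadjusted p below 0.05) and 1 lower when paired (3.51% of all rows). That gene was Homer2, which links metabotropic glutamate receptors to calcium stores, at 17.4 ± 0.301 and 13.1 ± 1.20 CPM (adjusted p = 0.190, 0.0244 paired). The abundant scaffolds Sdcbp, Dlg1 and Dlg4 had log2 differences of 0.02, 0.11 and -0.01. Of 7 enzymes, 0 were called by limma in either fit, with 0 at an unadjusted p below 0.05 unpaired and 3 paired. Glud1 and Glul, which make and use glutamate and glutamine, had differences of -0.01 and 0.09, and the row of Glud1 holds a second identifier.

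**Figure D4:**
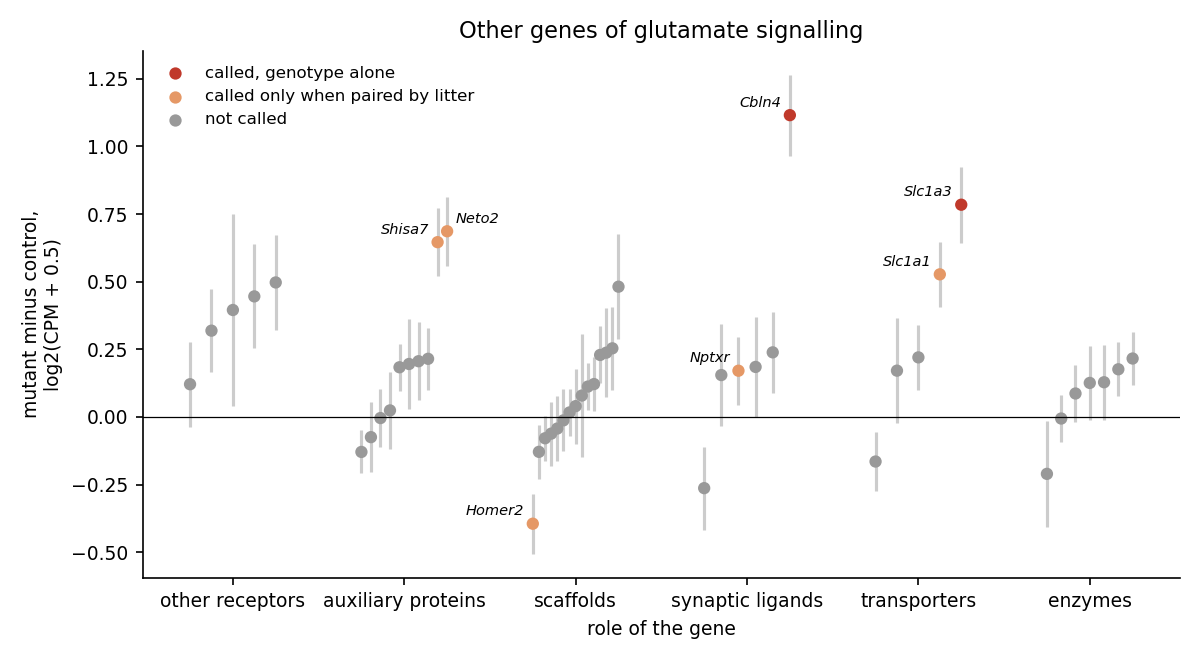
Difference between mutant and control kidneys (vertical axis, log2(CPM + 0.5), limma's estimate ± SE) for 48 further genes of glutamate signalling, grouped by role. Red points (Cbln4, Slc1a3) were called with genotype alone and orange points only when paired by litter; other receptors and enzymes have none.

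Of 17 other receptor genes listed, 5 had a row, and the other 12, among them Grin1, were not analysed here. In either fit limma called 0 of the 5, with 2 at an unadjusted p below 0.05 unpaired and 3 paired, and all had a positive difference. Grik4, a second high-affinity kainate subunit gene, stood at 8.08 ± 1.38 and 10.2 ± 1.28 CPM (adjusted p = 0.476 by limma, 0.0906 paired). Its mutant libraries (9.15, 11.6 and 9.71 CPM) all lay above its control libraries (6.51, 8.63 and 9.10 CPM), as in 10.2% of tested rows. The metabotropic receptor gene Grm4 stood at 4.19 ± 2.08 and 5.35 ± 1.94 CPM (0.735, 0.385 paired). The NMDA receptor gene Grin3a stood at 2.55 ± 0.160 and 2.83 ± 0.455 CPM (0.828, 0.632 paired). The groups of Grm4 and Grin3a overlapped.

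Because these receptors are best known from neurons, markers of nerve and other cells were set beside them. The marker lists were chosen with earlier results of these data known, so a call in them is a description and not an independent test. Of all rows, limma called 0.559% with genotype alone and 11.4% when paired. Of 12 neuronal markers 6 had a row, with a summed level of 21.5 to 25.3 CPM in controls and 19.2 to 23.3 CPM in mutants. One of the 6, Elavl4, was called, and it was lower in mutants (log2 difference -1.30, adjusted p = 0.0302 by limma). Nefl was lower as well when paired (-0.78, adjusted p = 0.0315). Stmn2 and Gap43 had higher values in every mutant than in any control library, with log2 differences of 0.40 and 0.23 that did not pass (adjusted p = 0.263 and 0.557 by limma, 0.0661 and 0.214 paired), and the median of the 6 was 0.10. Of 8 Schwann and glial markers 3 had a row, summing to 47.8 to 53.0 CPM in controls and 51.0 to 57.8 CPM in mutants, and limma called 0 (0 at an unadjusted p below 0.05). None of the 6 markers of chromaffin and sympathoadrenal cells was analysed here. All 10 kidney markers had a row, with sums of 622 to 701 CPM in controls and 629 to 691 CPM in mutants. With genotype alone limma called 0 of them. When paired it called Ret and Foxd1 higher (log2 differences 0.29 and 0.31, adjusted p = 0.0164 and 0.0332). It also called Wt1 and Nphs1 lower (-0.20 and -0.26, adjusted p = 0.0216 and 0.0286). With pairing and the length and GC correction, Ret and Foxd1 did not pass (adjusted p = 0.0617 and 0.0849 by limma). Wt1 and Nphs1 did (0.0345 and 0.0195).

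Marker RNA of several kidney cell types differed between the groups. These lists too were chosen with earlier results of these data known, so the calls are given as a description. Of all rows, limma called 0.363% higher and 0.196% lower with genotype alone, and 7.93% and 3.51% when paired. Summed nephron progenitor markers stood at 464 to 470 CPM in controls and 363 to 370 CPM in mutants, with 4 of 10 lower and 0 higher by limma, and 6 lower when paired. The 4 were Cited1, Meox1, Meox2 and Traf1 (log2 differences -2.07, -1.54, -2.47 and -1.61), and pairing added Six2 and Eya1 (-0.39 and -0.35, adjusted p = 0.00626 and 0.00794), while Gdnf, Itga8, Osr1 and Crym did not pass in either fit (0.0016, 0.0095, 0.08 and -0.11). Summed stromal markers stood at 1395 to 1584 CPM and 1774 to 1982 CPM, with 3 of 10 higher and 0 lower, and 4 higher when paired. Those called were Fat4, Ntn1 and Pdgfra (log2 differences 0.78, 0.68 and 0.51), with Foxd1 (0.31) added by pairing. With pairing and the length and GC correction Foxd1 did not pass (adjusted p = 0.0849 by limma). Pdgfrb, Meis1, Tbx18, Dcn, Lum and Col1a1 did not pass in either fit (0.08, 0.12, 0.41, 0.30, 0.37 and 0.27). Col1a1 alone held 741 ± 99.4 CPM in controls and 888 ± 61.5 CPM in mutants. Summed endothelial markers stood at 701 to 719 CPM and 803 to 812 CPM, with 0 of 5 called by limma (3 at an unadjusted p below 0.05) and 3 higher when paired. The podocyte sums overlapped, with 931 to 1069 CPM and 1043 to 1088 CPM. Of 8 podocyte markers limma called Npnt higher (0.41, adjusted p = 0.0496, and 0.00246 paired), and when paired it also called Nphs1 and Wt1 lower (-0.26 and -0.20, adjusted p = 0.0286 and 0.0216). The part of these shifts in the values of the receptor genes was not tested.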

How the data were processed

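Libraries were made with the Illumina TruSeq kit from Trizol RNA, per the labels' protocols, and reads were handled with TopHat2 2.0.9, Picard and SAMtools on build NCBIM37, per the submitters' processing notes. The counting program, strand setting and annotation are not given in the sources used here. The authors deposited CPM values. Multiplied by library totals of 43804667 to 54913325 reads, found from the steps between low values, they came out whole to within 0.001 reads in all rows. A second test of these steps did not accept them as whole reads, so the read numbers given are reconstructed from CPM. Of 13965 rows, 526 join several identifiers. Symbols, transcript lengths and 3′ UTRs came from GENCODE M21 (GRCm38), which matched 13695 rows, and microRNAs from RefSeq.

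limma 3.58.1 (R 4.3.3, mean-variance trend) was run on log2(CPM + 0.5) with genotype alone, for 13766 rows that reached 1 CPM in 3 or more libraries. P values were adjusted by Benjamini-Hochberg over these rows and called below 0.05. Pairing by litter, which the labels give, was an alternative. Deviations from the group means correlated across genes at 0.619, 0.446 and 0.312 within litters and at -0.514 to 0.172 between them. Single values in 3 against 3 libraries allow no exact p below 0.1, so none is given. The labels do not say whether a library is 1 animal, so p values measure only the spread between libraries, which may in part be technical. Named genes were all members, listed genes called in either fit, up to 3 of the highest mean per role, and the 3 nearest profiles to Gria1 and Grid1. The members and lists were chosen with earlier results of these data known. One listed gene that this rule names is not reported here.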

Additional observations from a re-analysis of the deposited data

How the results depend on the processing

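Litter as a replicate block raised the number of rows called from 77 to 1574 (878 with the length and GC correction), that of the 7 members other than Gria1 and Grid1 from 0 to 3 (1), that of the further glutamate genes from 2 to 7 (7) and that of the marker genes from 9 to 19 (17). The correction alone gave 224 rows and 5 further glutamate genes. In 2 fits added after the data were seen, TMM and median-ratio scaling with the block, 1489 (927 higher, 562 lower) and 1501 rows (908 higher, 593 lower) were called, with 3 members, 6 further glutamate genes and 19 markers in each. Median-ratio scaling alone called 1 further glutamate gene. With each library left out in turn, the counts ran from 22 to 100 rows, 0 to 3 further glutamate genes and 6 to 9 markers. Fits without a litter had 4 libraries each. Without litter 1 the counts were 92 rows, 3 further genes and 8 markers. Without litter 2 they were 6 rows, 0 further genes and 4 markers, and without litter 3 they were 1, 0 and 1. In these fits without litter 1, 2 or 3, 1598, 868 and 754 rows had an unadjusted p below 0.05. The differences of Gria1 and Grid1 ranged from 1.17 to 1.45 and from 1.03 to 1.39 over 20 alternatives each. Values near 0 changed sign. Gria3 became -0.0019 with the length and GC correction (with and without the block), -0.083, -0.0097, -0.063 and -0.014 without mutant 1, control 2, control 3 and mutant 3 (up to 0.19 without another library), and -0.11 without litter 3. Grik2 became -0.065 with the correction (either fit) and -0.0064 without control 2 (up to 0.12 without another). Grik5 became 0.00098 with the correction (either fit), 0.11 without mutant 1 or control 2 (down to -0.089 without another), 0.021 without litter 1 and 0.061 without litter 2. Gria2 was below the minimum in 6 alternatives. The planned edgeR fits on recovered reads were not run, because a second test of the steps in the CPM values did not accept them as whole reads. Depth limits Gria2 most, with 27 to 71 reads a library.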
